A study of Mus musculus with 6 samples.

Results

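The genes described are 9 members of the Notch pathway, chosen by name as columns of the deposited expression table: the receptors Notch1, Notch2 and Notch3, the ligands Jag1 and Jag2, and the target genes Hes1, Hey1, Heyl and Nrarp. All 9 were among the 17739 gene symbols of the table. The RNA was that of organoids, pieces of mammary epithelium freed by collagenase and pronase from the second and the third glands of FVB mice on lactation day 1 and enriched by brief spins. The compared groups were mice labelled Nmi-/- from a conditional knockout of Nmi (3 mice) and mice labelled Wild Type (3 mice), numbered 1 to 3 in each group, with 1 library per mouse. The sources used here give neither the Cre line, nor the deleted exons, nor the age of the mice. Nmi is a partner of Myc and STAT proteins, and the study set out to learn how its loss leads to excess growth of the mammary epithelium.

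Notch receptors are membrane proteins that are cut when a Jagged or Delta ligand on a neighbouring cell binds them. The freed intracellular part enters the nucleus, joins the DNA-binding protein RBPJ and switches on target genes, of which the Hes and Hey repressors and the feedback inhibitor Nrarp are the best known. In the mammary gland the pathway is known for directing progenitors towards the luminal lineage, and Notch3 and Notch1 mark luminal progenitors.

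The promoters of 6 of the 9 genes matched the RefSeq table on GRCm38.p6, as windows of 300 bases that run from 250 before to 50 after the RefSeq start. For Notch1 this start lies inside the longer GENCODE span of the gene that is given with its values. The windows of 4 are shown, because Notch1 and Notch3 are the receptors whose ratio did not overlap between the genotypes, Jag1 was the ligand with the widest range and Nrarp is a target gene. Capitals mark the GC box GGGCGG or its reverse complement CCGCCC, where overlapping matches run together.
Notch1 (chr2:26503773-26504072, minus strand): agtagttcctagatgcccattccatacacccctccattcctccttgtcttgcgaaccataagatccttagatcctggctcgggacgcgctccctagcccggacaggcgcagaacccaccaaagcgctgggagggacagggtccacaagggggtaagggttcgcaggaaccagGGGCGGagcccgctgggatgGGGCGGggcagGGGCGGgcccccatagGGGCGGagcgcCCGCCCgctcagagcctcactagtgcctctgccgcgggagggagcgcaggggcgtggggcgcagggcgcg
Notch3 (chr17:32166841-32167140, minus strand): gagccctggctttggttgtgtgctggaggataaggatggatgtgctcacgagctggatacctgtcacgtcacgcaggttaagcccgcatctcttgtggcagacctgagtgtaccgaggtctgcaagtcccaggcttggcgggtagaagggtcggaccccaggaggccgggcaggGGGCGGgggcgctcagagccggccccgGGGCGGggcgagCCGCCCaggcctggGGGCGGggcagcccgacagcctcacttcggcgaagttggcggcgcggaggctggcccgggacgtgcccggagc
Jag1 (chr2:137116471-137116770, minus strand): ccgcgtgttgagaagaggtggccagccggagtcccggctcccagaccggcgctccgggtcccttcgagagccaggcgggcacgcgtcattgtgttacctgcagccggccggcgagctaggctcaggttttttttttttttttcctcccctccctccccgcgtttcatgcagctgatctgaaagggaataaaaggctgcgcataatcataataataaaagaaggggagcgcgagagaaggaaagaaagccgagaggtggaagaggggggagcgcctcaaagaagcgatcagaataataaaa
Nrarp (chr2:25180508-25180807, plus strand): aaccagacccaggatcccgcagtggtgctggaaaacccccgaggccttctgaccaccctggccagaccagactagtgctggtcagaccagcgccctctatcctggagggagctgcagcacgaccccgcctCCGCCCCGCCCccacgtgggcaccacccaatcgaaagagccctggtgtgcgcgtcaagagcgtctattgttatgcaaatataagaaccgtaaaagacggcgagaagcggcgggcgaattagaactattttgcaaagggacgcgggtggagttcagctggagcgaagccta
The Notch1 window held 5 GC boxes, that of Notch3 4, that of Nrarp 2 and that of Jag1 0, and 35.7% of all 32851 promoter windows held at least 1. GC content was 68.3% for Notch1, 70.0% for Notch3, 55.7% for Jag1 and 60.0% for Nrarp, against a median of 52.7% over all windows. The RBPJ core TGGGAA, searched on both strands, had 0 matches in each of the 6 windows, which says only that these letters are not in them. It was found in 25.6% of all windows.

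Values are FPKM, fragments scaled for the length of the gene and the size of the library, so levels of different genes can be set side by side. Notch1 and Hes1 were the highest of the 9 genes, at 11.3 ± 3.77 and 10.9 ± 1.78 FPKM over the 6 libraries (SD, n = 6), and Notch1 exceeded Hes1 in 5 of 6 libraries. The means of Notch1 and Hes1 were above or equal to those of 84.2% and 83.7% of all genes in the table. Notch3 followed at 5.47 ± 0.677 FPKM, below Hes1 in 6 of 6 libraries and above Jag1 in 4 of 6, a step within the spread of Jag1. Jag1 at 4.36 ± 2.32 FPKM and Notch2 at 4.21 ± 1.43 FPKM could not be ordered, since Jag1 was the higher in 3 of 6 libraries. Nrarp at 1.92 ± 0.572 FPKM lay above Jag2 at 1.72 ± 0.302 FPKM in 4 of 6 libraries, within their spread. Hey1 at 0.965 ± 0.425 FPKM and Heyl at 0.481 ± 0.122 FPKM were the lowest. Hes1 thus held most of the target signal, 75.9 ± 6.63% of the summed FPKM of the 4 targets in Nmi knockout libraries and 76.6 ± 2.88% in wild-type libraries (SD, n = 3 each).

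**Figure D1:**
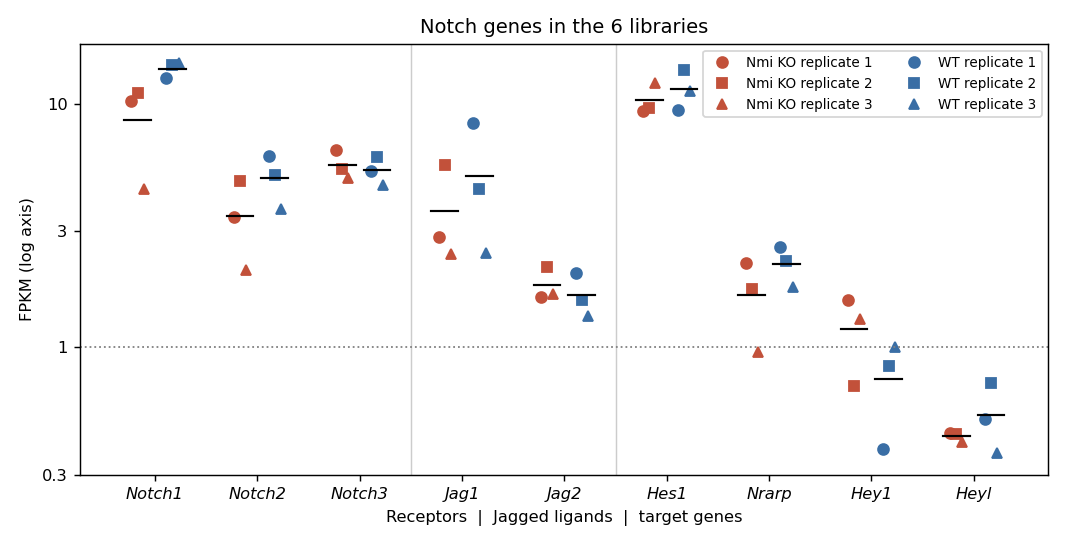
FPKM of the 9 Notch genes on a log axis, with Nmi knockout libraries left of wild-type libraries for each gene; each symbol is 1 library, the bar is the mean of 3, and the dotted line marks 1 FPKM. Notch1 was the only gene of the 9 whose genotypes did not overlap, and knockout replicate 3, at 4.48 FPKM, lay apart from the other 2 knockout libraries.

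Nmi itself had 0.188, 0.547 and 0.564 FPKM in knockout replicates 1, 2 and 3 and 4.60, 2.82 and 2.32 FPKM in wild-type replicates 1, 2 and 3. Its mean was 0.433 ± 0.213 FPKM in the knockout and 3.25 ± 1.19 FPKM in wild type (SD, n = 3 each), and the groups did not overlap. Milk protein genes took 61.6% to 74.9% of the FPKM sum in knockout libraries and 46.0% to 68.4% in wild-type libraries, and FPKM sums ran from 379478 to 509453. Wild-type replicate 1 and knockout replicate 3 stood at the ends of the first principal component, which held 73.8% of the variance. The organoids carried the defining markers of their labelled cell type: the 10 luminal and general epithelial markers summed to 1402 to 4956 FPKM in knockout and 3375 to 7175 FPKM in wild-type libraries. The median log2 fold change of the 9767 genes tested was -0.21, knockout over wild type, so most genes (7980) had a negative value. With limma and Benjamini-Hochberg adjustment, 0 genes (0%) passed an adjusted p of 0.05, Nmi at 0.372 and all Notch genes included, and 130 (1.33%) had an unadjusted p under 0.05. Genes with at least 1 FPKM in at least 3 libraries were tested, which took in 8 of the 9 Notch genes and left out Heyl. Organoids are bulk samples, in which fewer cells of a type and less RNA per cell cannot be told apart.

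Of the receptors, 0 of 3 passed the adjusted threshold. Notch1, which lies on chromosome 2 at 26457903 to 26516663 of GRCm38, minus strand, had 10.3, 11.1 and 4.48 FPKM in knockout replicates 1, 2 and 3 and 12.8, 14.5 and 14.7 FPKM in wild-type replicates 1, 2 and 3. All 3 knockout libraries lay below all 3 wild-type libraries, with replicate 3 far below the other knockouts. The means were 8.62 ± 3.61 FPKM in the knockout and 14.0 ± 1.04 FPKM in wild type (SD, n = 3 each). The log2 fold change of FPKM + 1 was -0.72 (SE 0.31, 95% interval -1.41 to -0.03). It did not pass the threshold (limma adjusted p = 0.768, unadjusted p = 0.0417), and the exact two-sided permutation test gave p = 0.1, the smallest that 3 against 3 mice allow. Notch1 was the 1 Notch gene of 8 tested with an unadjusted p under 0.05 in the lower direction and the 1 with groups that did not overlap there, where 1.15% and 3.83% of all genes tested did so. In the higher direction the counts were 0 and 0 of 8, where those of all genes tested were 0.184% and 0.778%. Without knockout replicate 3, the log2 fold change of Notch1 was -0.36 (limma unadjusted p = 0.178). Setting a library aside cannot make separate groups overlap, so the overlap was not tested by this.

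Notch2, on chromosome 3 at 98013527 to 98150361 on the plus strand, had 3.44, 4.85 and 2.08 FPKM in knockout replicates 1, 2 and 3 and 6.13, 5.09 and 3.69 FPKM in wild-type replicates 1, 2 and 3. Knockout replicate 2 lay within the wild-type range, so the groups overlapped. The log2 fold change was -0.45 (SE 0.28, limma adjusted p = 0.768). Notch3, on chromosome 17 at 32120820 to 32166852 on the minus strand, is the receptor known in the gland for a slowly dividing luminal population and also for the mural cells of vessels. It had 6.46, 5.39 and 4.95 FPKM in knockout replicates 1, 2 and 3 and 5.30, 6.07 and 4.66 FPKM in wild-type replicates 1, 2 and 3. In FPKM as deposited these were the most even values of the 9 genes, with a highest to lowest ratio of 1.39 over the 6 libraries, against 3.28 for Notch1. On the scale outside milk genes that is given below, this ratio was lowest for Jag2, at 1.46, and was 1.53 for Notch3. The log2 fold change of Notch3 was 0.06 (SE 0.22, 95% interval -0.43 to 0.55, limma adjusted p = 0.915).

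Ratios within a library do not depend on how libraries are scaled. The ratio of Notch1 to Notch3 FPKM was 1.60, 2.06 and 0.904 in knockout replicates 1, 2 and 3 and 2.41, 2.39 and 3.15 in wild-type replicates 1, 2 and 3. Each knockout value was below each wild-type value. With knockout replicate 3 set aside, which cannot make separate groups overlap, the knockout mean was 1.83. The means were 1.52 ± 0.579 in the knockout and 2.65 ± 0.432 in wild type (SD, n = 3 each). The exact two-sided permutation test of this ratio gave p = 0.1, the smallest possible, and 0.35 after Benjamini-Hochberg adjustment over the 7 ratios between Notch genes that were computed. This was the ratio of the 7 without overlap, and it was singled out after its values were seen. Notch3 made up 33.4 ± 8.96% of the summed FPKM of the 3 receptors in the knockout and 21.9 ± 1.71% in wild type (SD, n = 3 each). Without knockout replicate 3, at 43.0%, the knockout mean of this share was 28.6%. Notch1 made up 47.3 ± 7.29% in the knockout and 57.7 ± 5.55% in wild type, and Notch2 19.3 ± 3.04% in the knockout and 20.4 ± 4.66% in wild type.

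**Figure D2:**
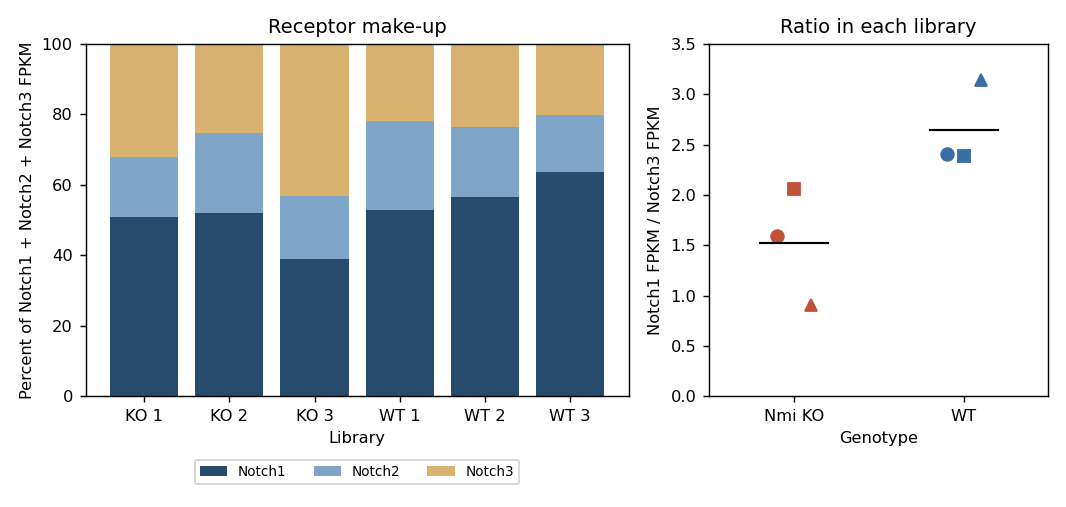
Left, share of Notch1, Notch2 and Notch3 in their summed FPKM in each library, in percent, with the 3 Nmi knockout libraries (KO) left of the 3 wild-type libraries (WT). Right, ratio of Notch1 to Notch3 FPKM, with 1 symbol per library (circle, square and triangle for replicates 1, 2 and 3) and a bar for the mean of 3; knockout values ran from 0.904 to 2.06 and wild-type values from 2.39 to 3.15.

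The markers of cell types known to carry these receptors lay on both sides of 0. Of the 10 luminal and general epithelial markers, 9 had a negative log2 fold change, as did 7980 of the 9767 genes tested. The median of the 10 was -0.82, further from 0 than Notch1 at -0.72. The milk protein genes, which luminal cells also make, had positive values in 18 of 20 and a median of 0.33. Of the 4 tested leukocyte markers 3 were positive, with a median of 0.58. Of all 9767 genes tested, 1787 were positive. After libraries were rescaled to the 10 luminal and general epithelial markers, the median of all genes was 0.48. Notch1 then had a log2 fold change of 0.026 and Notch3 one of 0.77. The 6 tested markers of pericytes and vessel smooth muscle all had small positive values, with a median of 0.11, and the 8 listed summed to 23.2 to 37.8 FPKM in knockout and 18.7 to 33.1 FPKM in wild-type libraries. 0 of these 8 markers were listed at 0 in every library, but Higd1b was at 0 in wild-type replicate 1. Higd1b and Cspg4 were too low for the test. The part of either cell type in the receptor values was not tested.

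Both Jagged ligands overlapped between genotypes. Jag1, on chromosome 2 at 137081456 to 137116644 on the minus strand, encodes a membrane ligand of the Jagged family. It had 2.85, 5.63 and 2.42 FPKM in knockout replicates 1, 2 and 3 and 8.32, 4.49 and 2.44 FPKM in wild-type replicates 1, 2 and 3. The highest library, wild-type replicate 1, and the lowest, knockout replicate 3, differed 3.44-fold, and wild-type replicate 3 was as low as knockout replicate 3. The log2 fold change was -0.34 (SE 0.37, limma adjusted p = 0.768) and was 0.030 without wild-type replicate 1. Beside it, the 10 basal and myoepithelial markers summed to 383 to 1397 FPKM in knockout and 487 to 1037 FPKM in wild-type libraries. Of these, 10 of 10 had negative log2 fold changes, as did 7980 of the 9767 genes tested. The median of the 10 was -0.32, beside -0.21 for all genes tested, and 6 lay below and 4 above the latter. The part of these markers in the Jag1 values was not tested. Jag2, on chromosome 12 at 112907819 to 112929776 on the minus strand, was lower and steadier, with 1.61, 2.15 and 1.65 FPKM in knockout replicates 1, 2 and 3 and 2.02, 1.57 and 1.34 FPKM in wild-type replicates 1, 2 and 3. Its log2 fold change was 0.09 (SE 0.20, limma adjusted p = 0.853). Jag1 exceeded Jag2 in every library, by 1.46-fold to 2.62-fold in the knockout and 1.82-fold to 4.11-fold in wild type.

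Hes1, on chromosome 16 at 30064384 to 30067796 on the plus strand, encodes a repressor of differentiation genes and is the most widely used readout of Notch activity. It had 9.35, 9.59 and 12.2 FPKM in knockout replicates 1, 2 and 3 and 9.48, 13.7 and 11.3 FPKM in wild-type replicates 1, 2 and 3. The genotypes overlapped, and knockout replicate 3, the library with the least Notch1, had the second highest Hes1 of the 6. The log2 fold change was -0.13 (SE 0.24, 95% interval -0.67 to 0.41, limma adjusted p = 0.825). Its sign depended on scaling: it was 0.089 after trimmed-mean rescaling, against -0.13 as deposited. The ratio of Hes1 to Notch1 FPKM was 0.907, 0.865 and 2.72 in knockout replicates 1, 2 and 3 and 0.742, 0.949 and 0.769 in wild-type replicates 1, 2 and 3, so 1 library stood apart and the other 5 lay close together.

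Nrarp, on chromosome 2 at 25180758 to 25183339 on the plus strand, encodes a small ankyrin-repeat protein that is induced by Notch and limits it. It had 2.22, 1.74 and 0.954 FPKM in knockout replicates 1, 2 and 3 and 2.58, 2.27 and 1.77 FPKM in wild-type replicates 1, 2 and 3. Knockout replicate 1 lay inside the wild-type range and the other 2 knockouts below it. The log2 fold change was -0.30 (SE 0.23, limma adjusted p = 0.768). The ratio of Nrarp to Notch1 stayed within 0.157 to 0.215 in the knockout and 0.120 to 0.201 in wild type. Of the exonic bases of Nrarp, 2051 of 2582 are also annotated as exon of the opposite-strand gene model Gm38287. The sources used here do not say whether the authors' counting used strand, so reads of the pair may not be separable. The overlap was smaller for Notch1, with 1389 of 14232 exonic bases under opposite-strand models, and for Notch3, with 488 of 8089. For Notch2 it was 541 of 10782, with the same-strand model Gm42820, which counting by strand would not separate.

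Hey1 and Heyl encode repressors related to Hes1, and both were near or under 1 FPKM. Hey1, on chromosome 3 at 8663359 to 8667256 on the minus strand, had 1.56, 0.694 and 1.30 FPKM in knockout replicates 1, 2 and 3 and 0.382, 0.838 and 1.01 FPKM in wild-type replicates 1, 2 and 3. Knockout replicates 1 and 3 were above every wild-type library, and knockout replicate 2 was inside the wild-type range. Hey1 had the most positive log2 fold change of the 8 tested, 0.32 (SE 0.22, 95% interval -0.16 to 0.81, limma adjusted p = 0.768). The value was 0.63 with a pseudocount of 0.1, 0.10 with the milk share as a covariate and 0.17 without wild-type replicate 1. It passed the filter on low values through 1 wild-type and 2 knockout libraries. Heyl, on chromosome 4 at 123233556 to 123249875 on the plus strand, had 0.445, 0.443 and 0.410 FPKM in knockout replicates 1, 2 and 3 and 0.507, 0.711 and 0.370 FPKM in wild-type replicates 1, 2 and 3. These values overlapped and were too low for the test.

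**Figure D3:**
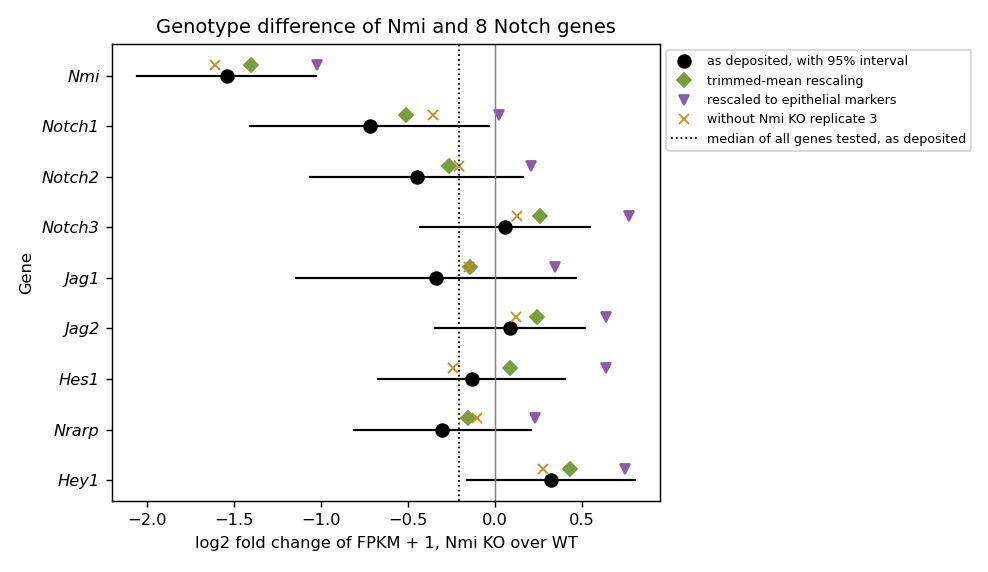
Log2 fold change of FPKM + 1, Nmi knockout over wild type, for Nmi and the 8 Notch genes tested. Black points with bars give the value and its 95% interval as deposited, and coloured symbols the value under 2 rescalings and without knockout replicate 3; the dotted line marks the median of all genes, -0.21. Of the Notch genes, only the interval of Notch1 as deposited stopped short of 0. The value of Notch1 was 0.026 after rescaling to epithelial markers, where the median of all genes was 0.48.

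Over the 8 tested genes the median log2 fold change was -0.22, beside -0.21 for all 9767 genes tested, and 5 were negative and 3 positive. Relative to the median of all genes in the same setting, the log2 fold change of Notch1 was -0.51 as deposited and -0.27 without knockout replicate 3, and that of Notch3 was 0.26 as deposited and 0.21 without this library. Over the settings run, such relative values ranged from -0.37 to 0.24 for Jag1 and from -0.39 to 0.23 for Hes1, on both sides of 0.

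The levels were also set against the milk share of the libraries, and 0 of 9 relations passed after adjustment. To take milk transcripts out of the scale, each gene was given in ppm of the FPKM sum outside the 20 milk protein genes. The milk share thus enters both sides of these relations. The sum outside milk genes fell as the share rose, so a gene with even FPKM gets a positive r. In the order of rising milk share, which is wild-type replicates 1 and 2, knockout replicates 2 and 1, wild-type replicate 3 and knockout replicate 3, Notch2 was 29.9, 29.3, 28.5, 21.1, 24.3 and 16.3 ppm. In the same order Hey1 was 1.87, 4.81, 4.09, 9.58, 6.64 and 10.2 ppm. Notch2 was thus lowest and Hey1 highest where milk genes took most. For Hey1, Pearson's r with the milk share was 0.925 (exact permutation p = 0.0111, adjusted p = 0.1 over 9 genes) and Spearman's rho 0.886 (exact permutation p = 0.0333, adjusted p = 0.15), over 6 libraries of both genotypes; 3 libraries per genotype are too few for values within one. For Notch2, r was -0.814 (exact permutation p = 0.0472, adjusted p = 0.106) and rho -0.943 (exact permutation p = 0.0167, adjusted p = 0.15). For Jag1, r was -0.831 (exact permutation p = 0.0278, adjusted p = 0.106) and rho -0.771 (exact permutation p = 0.103, adjusted p = 0.308). For Hes1, r was 0.798 (exact permutation p = 0.0472, adjusted p = 0.106) and rho 0.657 (exact permutation p = 0.175, adjusted p = 0.394). The other 5 genes had r between -0.616 and 0.749, each with an exact permutation p of at least 0.0861. Without wild-type replicate 1 and knockout replicate 3, which were farthest from the median milk share, r was 0.612 for Hey1, -0.694 for Notch2, -0.810 for Jag1 and -0.026 for Hes1 over 4 libraries, so the relation of Hes1 rested on these 2. On this scale Notch1 overlapped between genotypes, at 63.2, 65.3 and 35.1 ppm in knockout replicates 1, 2 and 3 and 62.4, 83.2 and 96.7 in wild-type replicates 1, 2 and 3.

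**Figure D4:**
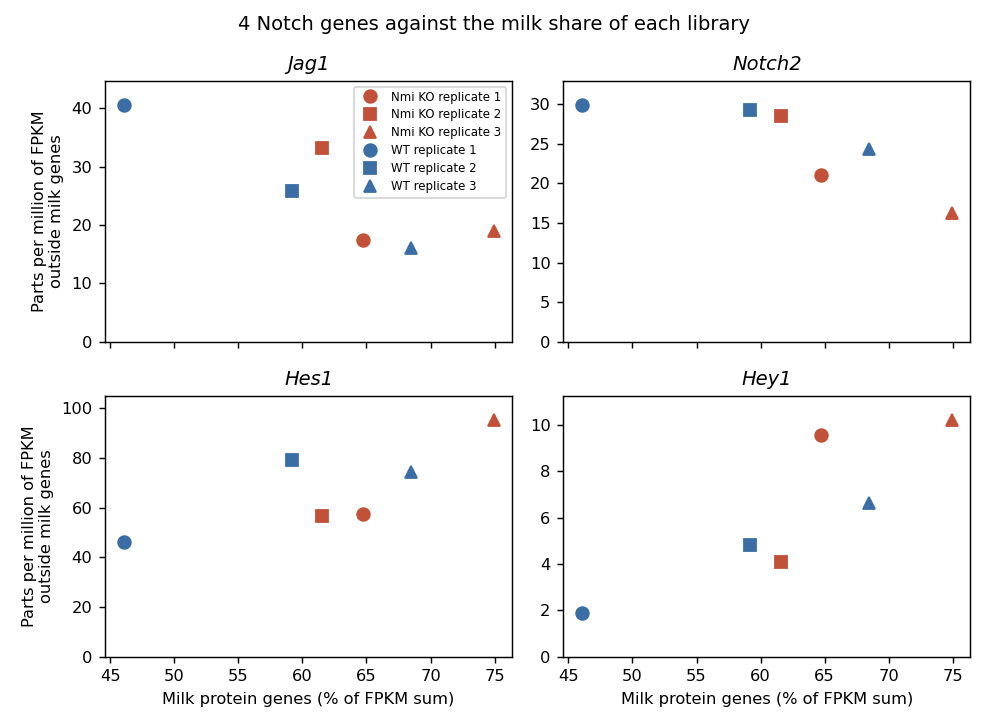
Level of Jag1, Notch2, Hes1 and Hey1 in ppm of the FPKM sum outside milk protein genes, against the percent of the FPKM sum held by milk protein genes; each symbol is 1 library, red for Nmi knockout and blue for wild type. Jag1 and Notch2 were highest in the library with the least milk transcript, wild-type replicate 1, and Hes1 and Hey1 were lowest there.

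The other genes of the pathway, from a list of 81 written by role, gave no call either. Of these, 77 were in the table and 61 were tested, and with limma 0 passed the adjusted threshold. Of the 61 tested, 0 had an unadjusted p under 0.05 in either direction and 0 had groups without overlap, where 1.33% and 4.61% of all genes tested did. Their median log2 fold change was -0.22, beside -0.21 for all genes. Notch4, the receptor of endothelial cells, had 1.25 ± 0.363 FPKM in the knockout and 1.61 ± 0.808 FPKM in wild type, and its endothelial partner Dll4 had 1.61 ± 0.330 FPKM in the knockout and 2.06 ± 0.657 FPKM in wild type (SD, n = 3 each). The 10 endothelial markers, 0 of them listed at 0 in any library, summed to 79.8 to 154 FPKM in knockout and 88.0 to 167 FPKM in wild-type libraries, and their part was not tested. Dll1, the Delta ligand known for mammary stem cells, was at 3.01 ± 0.908 FPKM in the knockout and 3.08 ± 0.558 FPKM in wild type. Hes6, which opposes Hes1, was at 3.47 ± 1.46 FPKM in the knockout and 4.05 ± 1.28 FPKM in wild type, and Hes2, Hes7 and Hey2 were at most 0.285 FPKM in every library. Hey2 and Aph1b were too low for the test, where an entry can be a failed estimate, but did not overlap between genotypes. Aph1b is a listed gene outside the naming rule and is given only for this. Hey2 had 0.0724 to 0.139 FPKM in the knockout and 0.149 to 0.182 FPKM in wild type. Aph1b had 0.245 to 0.438 FPKM in the knockout and 0.591 to 0.754 FPKM in wild type. The share without overlap among all untested genes was not computed, so nothing is concluded from either gene.

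Each gene named here was the most abundant tested gene of its role, so its level does not stand for the role. Furin, which cuts the receptor precursor, had 36.0 ± 9.08 FPKM in the knockout and 36.8 ± 3.21 FPKM in wild type (SD, n = 3 each). The sheddase Adam10 had 20.9 ± 7.30 FPKM in the knockout and 26.1 ± 8.63 FPKM in wild type. The corepressor gene Ctbp1 was at 19.5 ± 2.30 FPKM in the knockout and 22.6 ± 5.59 FPKM in wild type. The fringe gene Rfng, which modifies receptor sugars, was at 6.69 ± 0.747 FPKM in the knockout and 6.31 ± 0.862 FPKM in wild type. The ubiquitin ligase gene Nedd4 was at 56.1 ± 16.1 FPKM in the knockout and 65.9 ± 8.16 FPKM in wild type. All of these groups overlapped. Numb, which antagonises Notch, had 12.5 ± 3.20 FPKM in the knockout and 14.8 ± 1.99 FPKM in wild type.

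By size of the log2 fold change, the 5 most negative of the 61 were Numbl (-0.63, SE 0.35, and -0.054 with the milk share as a covariate), a relative of Numb, the ubiquitin ligase gene Dtx2 (-0.57, SE 0.34), Myc (-0.51, SE 0.39), which is also a Notch target, the coactivator gene Maml1 (-0.45, SE 0.30) and the corepressor gene Ctbp2 (-0.43, SE 0.33). The 5 most positive were the cyclin gene Ccnd1 (0.38, SE 0.28), Sox9 (0.12, SE 0.28), the corepressor gene Tle2 (0.08, SE 0.25), Rfng (0.08, SE 0.22) and Xxylt1 (0.03, SE 0.19), a xylosyltransferase that modifies Notch. None of these 10 passed (limma adjusted p of at least 0.768 each). All 11 tested ubiquitin ligase and endocytosis genes had negative values, beside 7980 of the 9767 genes tested. Ccnd1 had 7.10 ± 2.30 FPKM in the knockout and 5.10 ± 1.17 FPKM in wild type.

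**Figure D5:**
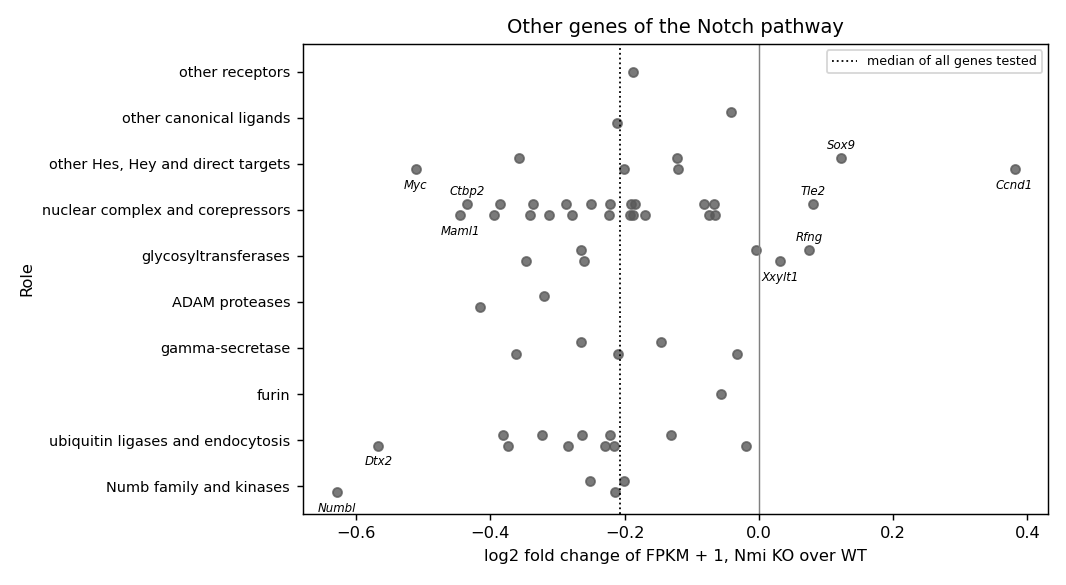
Log2 fold change of FPKM + 1, Nmi knockout over wild type, of the 61 other tested Notch pathway genes by role; each point is 1 gene, the dotted line is the median of all genes tested, -0.21, and the 5 genes at each end are named. Values ran from -0.63 for Numbl to 0.38 for Ccnd1, and most lay near the median of all genes.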

How the data were processed

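RNA from mammary epithelial organoids of 3 Nmi-/- and 3 wild-type FVB mice was sequenced, 1 library per mouse. The authors deposited FPKM values for 17739 gene symbols. TopHat, Cufflinks, SAMtools and FastQC, and the builds mm10 and GRCm38, are named per the submitters' processing notes, while versions, annotation and strand settings were not given in the sources used here. Read counts and depth are unknown, so no interval or floor from counts was computed and precision came from the spread between mice. Gapdh was listed at 0 in 3 libraries and at no more than 0.0769 FPKM in any library, so a low entry can be a failed estimate. Genes with at least 1 FPKM in at least 3 libraries (9767) were compared as log2(FPKM + 1), which understates the change of low genes, with limma 3.58.1 in R 4.3.3 (empirical Bayes with intensity trend, two-sided, Benjamini-Hochberg over all genes tested). Coordinates and exon overlaps came from GENCODE M21 on GRCm38 and promoters from RefSeq on GRCm38.p6. The Notch genes, the pathway and marker lists and the tests were chosen with earlier results of these data known. Named pathway genes were every other receptor, Delta ligand, Hes and Hey gene, the most abundant gene of each other role and the 5 largest changes each way, and 1 gene under this rule is not reported here; the genes most like Notch1 and Hes1 were those with the smallest root-mean-square difference of centred log2 profiles. Alternatives were 4 rescalings, other pseudocounts, filters and variance models, library weights, a milk covariate and left-out libraries.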

Additional observations from a re-analysis of the deposited data

How the results depend on the processing

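No paired analysis was possible because the labels give each mouse its own number and no number shared between genotypes. With each library left out in turn, 0 of all genes, 0 Notch members and 0 other pathway genes were called. Over all genes, 2 were called with library quality weights (Nmi and Cdk5rap1; weights were estimated gene by gene, since the joint estimate did not converge) and 1 without both wild-type replicate 1 and knockout replicate 3 (Gm7367), against 0 otherwise. The median of all genes, -0.21 as deposited, was -0.02 after trimmed-mean or quantile rescaling, -0.04 after scaling to the sum outside milk genes and 0.48 after rescaling to epithelial markers. Higher values in the knockout made up 13.8% of genes with an unadjusted p under 0.05 as deposited, 48.5%, 47.1%, 42.3% and 98.3% under these 4 rescalings in that order, 68.2% with the milk covariate and 40.2% without a filter. Rescaling to epithelial markers turned Notch1 to 0.026, Notch2 to 0.21, Jag1 to 0.35, Hes1 to 0.64, Nrarp to 0.23, Dtx2 to 0.041, Myc to 0.30, Maml1 to 0.27 and Ctbp2 to 0.27. Hes1 was 0.089 after trimmed-mean, 0.0996 after quantile and 0.055 after outside-milk rescaling. The milk covariate turned Jag1 to 0.24, Myc to 0.0085, Ctbp2 to 0.041 and Xxylt1 to -0.062, and library weights turned Ccnd1 to -0.14, Sox9 to -0.27, Rfng to -0.012 and Xxylt1 to -0.16. Without both end libraries Jag1 was 0.22, Sox9 -0.026, Xxylt1 -0.11, Myc 0.031, Maml1 0.0025 and Ctbp2 0.16. Numbl was -0.054 with the milk covariate, -0.029 without both end libraries and -0.067 after rescaling to epithelial markers. With 1 library left out, log2 fold changes ran from -0.035 to 0.14 for Notch3, -0.69 to 0.030 for Jag1, -0.016 to 0.28 for Sox9, -0.15 to 0.24 for Tle2, -0.0022 to 0.16 for Rfng and -0.045 to 0.14 for Xxylt1, and without a sign change from -0.93 to -0.36 for Notch1, -0.67 to -0.21 for Notch2, -0.25 to -0.0064 for Hes1, 0.17 to 0.50 for Hey1, -0.46 to -0.10 for Nrarp, -0.94 to -0.27 for Numbl, -0.93 to -0.27 for Dtx2, 0.22 to 0.64 for Ccnd1, -0.89 to -0.22 for Myc, -0.67 to -0.16 for Maml1 and -0.62 to -0.13 for Ctbp2. As deposited, 130 genes had an unadjusted p under 0.05, against 25 when wild-type replicate 1 was left out, 632 when wild-type replicate 3 was, 1187 when knockout replicate 2 was, 59 when knockout replicate 3 was, 78 when both end libraries were, 326 without a filter, 51 at a filter of 5 FPKM, 288 after rescaling to epithelial markers, 85 with the milk covariate and 1142 with library weights. Causes were not tested. Depth is unknown, and the median half-width of a gene's 95% interval was 0.57 on the log2 scale over all genes tested.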

Other observations

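Among the 9490 tested genes set against them over the 6 libraries, Notch1 was most like Foxc1, a forkhead transcription factor gene, in its centred log2(FPKM + 1) profile, with a root-mean-square difference of 0.118, where Notch1 itself varied by 0.516 about its mean. Foxc1 had 10.7, 12.2 and 5.77 FPKM in knockout replicates 1, 2 and 3 and 16.4, 16.6 and 14.9 FPKM in wild-type replicates 1, 2 and 3. Aaed1 and Eva1b followed, at 0.136 and 0.140.

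For Hes1, which varied by 0.192 about its mean, the nearest were the Wnt receptor gene Fzd4 at 0.0677, the thiamine transporter gene Slc19a2 at 0.0796 and Yipf5 at 0.0857. Fzd4 had 1.18, 1.30 and 1.50 FPKM in knockout replicates 1, 2 and 3 and 1.25, 1.92 and 1.48 FPKM in wild-type replicates 1, 2 and 3.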
